A study of Mus musculus with 12 samples.

Results

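RNA levels of 34 genes of cholesterol and fatty acid synthesis were compared in mouse embryonic stem cells labelled as lacking Sphk2, with the floxed Sphk1 kept or, per the labels, deleted. The genes form a list of targets of the sterol regulatory element-binding proteins (SREBPs), matched to the deposited count table by symbol. All 34 were found among its 22753 genes, and all 34 passed the filter on low counts that left 15179 genes for testing. The sterol arm holds 20 of them and the fatty acid arm 14, and the arms are described apart. Levels are given in CPM, read counts per 1000000 of the effective library size, for replicates 1, 2 and 3 of a group in that order.

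The study used clones 4 and 10, each a line of embryonic stem cells grown in serum with LIF and, per the labels, derived from Sphk1fl/fl Sphk2-/- mice. The lines received 6 uM 4-hydroxytamoxifen over 48 hours before a sort for Cre-GFP. GFP-positive cells were labelled Sphk1-/- Sphk2-/- (kinase null) and GFP-negative cells Sphk1fl/fl Sphk2-/-, so that every group carried the Sphk2-/- label, had been exposed to the drug and came from a sort. The groups were clone 10 GFP-positive, clone 10 GFP-negative, clone 4 GFP-positive and clone 4 GFP-negative, with 3 libraries each. Each line is 1 clone, so that the clone and anything else that sets the lines apart cannot be told apart, and the gate and the presence of Cre-GFP likewise. The labels do not say whether replicates were separate cultures, so each p-value sets a difference against the spread of libraries that may be technical replicates. Labelled passages ran from 12 to 20 in clone 10 GFP-positive, 11 to 19 in clone 10 GFP-negative, 11 to 16 in clone 4 GFP-positive and 11 to 15 in clone 4 GFP-negative libraries. They differed between replicates and clones and were 1 higher in the GFP-positive library of 5 of 6 pairs. In replicates 2 and 3 the labels step by 1 from library to library, 13 to 20, and whether they record true passages was not tested.

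Cells make cholesterol from acetyl-CoA through mevalonate, farnesyl diphosphate, squalene and lanosterol, and make fatty acids from the same acetyl-CoA through malonyl-CoA. When membrane sterol is low, SREBP precursors leave the endoplasmic reticulum with their escort Scap, are cut in the Golgi, and their released ends enter the nucleus and bind sterol regulatory elements in target promoters. SREBP-2, the product of Srebf2, acts mainly on the sterol arm and SREBP-1, the product of Srebf1, mainly on the fatty acid arm. Sphingosine kinases phosphorylate sphingosine to sphingosine 1-phosphate, whose breakdown yields a fatty aldehyde that can re-enter lipid synthesis.

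The promoters of the list are shown because its members are grouped by a shared regulator. RefSeq promoter windows of the GRCm38.p6 build, 300 bases with 250 before and 50 after the annotated start, were found for 27 of the 34 members, and not for Fdps, Fdft1, Sqle, Stard4, Scd1, Scd2 and Fads1. The windows below show Hmgcs1 with a match to the sterol regulatory element form TCACNCCAC in capitals, and Mvk and Fasn with each CCAAT, the letters bound by NF-Y, in capitals on either strand.
Hmgcs1 (chr13:119690101-119690400, plus strand): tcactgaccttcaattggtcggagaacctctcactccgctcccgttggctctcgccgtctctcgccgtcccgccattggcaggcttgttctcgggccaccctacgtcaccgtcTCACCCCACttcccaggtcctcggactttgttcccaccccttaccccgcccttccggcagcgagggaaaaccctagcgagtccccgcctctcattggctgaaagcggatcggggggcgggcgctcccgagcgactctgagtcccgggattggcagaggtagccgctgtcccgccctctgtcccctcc
Mvk (chr5:114444019-114444318, plus strand): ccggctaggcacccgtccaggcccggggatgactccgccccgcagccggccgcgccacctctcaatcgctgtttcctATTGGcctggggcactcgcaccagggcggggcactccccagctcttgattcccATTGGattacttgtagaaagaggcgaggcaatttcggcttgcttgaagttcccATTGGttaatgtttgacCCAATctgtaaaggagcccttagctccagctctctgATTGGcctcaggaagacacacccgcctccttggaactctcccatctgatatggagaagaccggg
Fasn (chr11:120824498-120824797, minus strand): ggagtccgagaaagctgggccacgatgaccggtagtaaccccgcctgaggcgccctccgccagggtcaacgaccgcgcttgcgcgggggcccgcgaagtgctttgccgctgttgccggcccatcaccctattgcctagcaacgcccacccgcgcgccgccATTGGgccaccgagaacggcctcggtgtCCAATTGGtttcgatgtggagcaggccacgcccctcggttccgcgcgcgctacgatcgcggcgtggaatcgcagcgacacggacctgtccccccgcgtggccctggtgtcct
The 27 members have 35 windows, since some have up to 3 annotated starts. Hmgcs1 was the only member with a window that held TCACNCCAC on either strand, against 1.24% of all 32851 windows. CCAAT stood in 15 of 19 windows of the sterol arm (78.9%) and 9 of 16 of the fatty acid arm (56.2%), against 37.4% of all windows. GGGCGG, letters bound by Sp1, stood in 84.2% of sterol windows and 56.2% of fatty acid windows, against 35.7% of all. CACGTG, an E-box, stood in 21.1% of sterol windows and 6.25% of fatty acid windows, against 7.15% of all. Both strands were searched, no motif contains another, and a match is a description of the letters only.

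Library depth ran from 12968916 counts (clone 10 GFP-negative replicate 1) to 34258395 (clone 4 GFP-positive replicate 3). Replicate 1 of the GFP-negative group stood apart in both clones in its read coverage of long and short genes. Each gene's log2 CPM was taken as a deviation from its mean over libraries. The median deviation of the longest 25% of genes (at least 4848 annotated exon bases) minus that of the shortest 25% (at most 2005) was -1.13 in clone 10 GFP-negative replicate 1 and -0.78 in clone 4 GFP-negative replicate 1, against -0.14 to 0.49 in the other 10 libraries. Mitochondrial genes took 0.143% of counts in clone 10 GFP-negative replicate 1, against 0.594% to 2.32% elsewhere. All 10 pluripotency markers were detected in every library, at 70.4 to 4270 CPM, while the summed level of 7 adipocyte and hepatocyte markers was at most 2.55 CPM, with Ttr at 0 in all 12 libraries and Alb in 8. The summed level of 15 fibroblast markers was 272 to 660 CPM in clone 10 GFP-positive, 244 to 1179 CPM in clone 10 GFP-negative, 200 to 348 CPM in clone 4 GFP-positive and 317 to 762.1 CPM in clone 4 GFP-negative libraries. That of 8 markers of two-cell-like cells was 628 to 2665 CPM in clone 10 GFP-positive, 52 to 146 CPM in clone 10 GFP-negative, 21.7 to 180.1 CPM in clone 4 GFP-positive and 2.7 to 11.6 CPM in clone 4 GFP-negative libraries. The part of these markers in the results below was not tested. Sphk1, the floxed gene, was low throughout, at 0.73 to 4.17 CPM, and its change between gates did not pass the test within pairs (log2 change -0.61, SE 0.25, adjusted p = 0.166). Fewer cells of a type and less RNA per cell cannot be told apart in these bulk libraries.

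Every member was expressed in every library, the lowest count being 22 for Idi1. Per kilobase of exon, Scd2 was highest, at 103 RPKM averaged over the 4 groups, followed by Acly at 96.5, Hmgcs1 at 77.9 and Srebf2 at 71 RPKM. Libraries ranged over 68.3 to 153 RPKM for Scd2, 73.1 to 131 for Acly, 43 to 118 for Hmgcs1 and 57.5 to 103 for Srebf2, so these neighbours in the order overlapped. The lowest members were Idi1 at 1.23, Gpam at 2.75, Acss2 at 2.83 and Hsd17b7 at 2.84 RPKM. Srebf1 was at 28 RPKM, below Srebf2, and the ranges of 18.7 to 38.9 and 57.5 to 103 RPKM did not overlap.

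**Figure D1:**
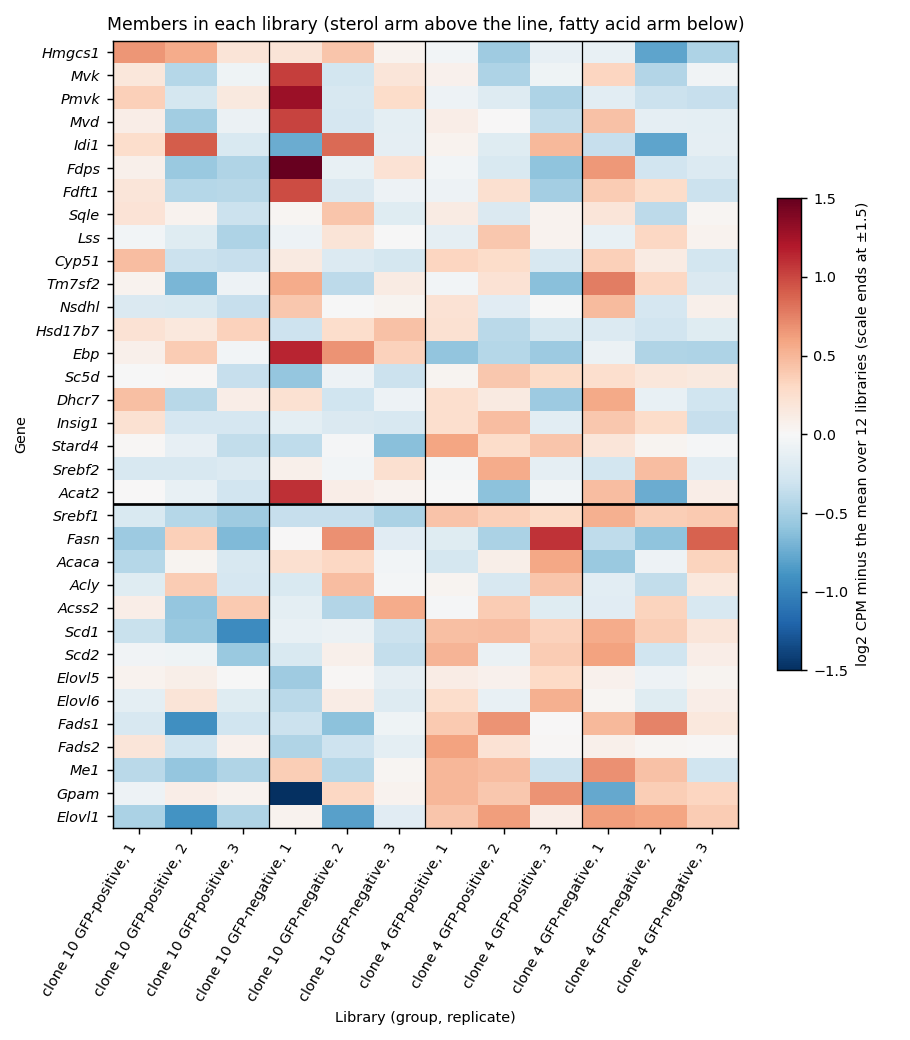
Level of each of the 34 members in each library, as log2 CPM minus the gene's mean over 12 libraries, with the colour scale ending at ±1.5. Clone 10 GFP-negative replicate 1 holds the darkest cells (Fdps and Pmvk high, Gpam low), and Srebf1, Scd1, Fads1 and Elovl1 are lower in the 6 clone 10 libraries at left than in the 6 clone 4 libraries at right.

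The comparison of GFP-positive with GFP-negative cells asks what changed in cells labelled null for both kinases. No member of either arm was called, in either clone, in their mean or in the difference between clones. Across libraries the edgeR test called 0 of 34 members in clone 10, in clone 4, and in the mean of both clones, against 0%, 0% and 0.158% of all genes tested. An unadjusted p under 0.05 was seen for 2 members in clone 10 (5.88%, against 7.45% of all genes) and 2 in the mean (5.88%, against 6.77%). In clone 4 it was seen for 0 members, against 1.38% of all genes. Since same-numbered libraries of a clone varied together, a second fit compared gates within the 6 pairs, and it also called 0 members, against 4.22% of all genes in clone 10, 0.119% in clone 4 and 3.36% in the mean. Within pairs, unadjusted p-values were under 0.05 for 11 of 34 members in clone 10 (32.4%, against 25.2% of all genes), for 2 in clone 4 (5.88%, against 7.42%) and for 12 in the mean (35.3%, against 26.3%). The difference of the gate contrast between clones had 0 calls in both fits, against 0% and 0% of all genes. For the mean of both clones within pairs, the 95% interval of 33 of 34 members lay within 1 log2 unit either side of 0, the exception being Gpam with a bound at 1.1.

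The medians of the arms carry no test, and their difference depended on the setting. The median log2 change of the 20 sterol genes within pairs was -0.29 in clone 10 and 0.030 in clone 4, beside -0.0097 and 0.0044 for all genes tested. That of the 14 fatty acid genes was -0.072 in clone 10 and 0.14 in clone 4. The 11 members under 0.05 unadjusted in clone 10 were all lower in GFP-positive cells, 7 of the sterol arm and 4 of the fatty acid arm. Among all genes tested that were under 0.05 in clone 10, 1806 were lower and 2021 higher. In the mean of both clones 8 of the 12 members were lower and 4 higher, beside 1871 lower and 2127 higher among all genes. Without clone 10 replicate 1, the sterol median in clone 10 was -0.15 and the fatty acid median -0.16. With an offset for exon length, an alternative chosen after seeing the data, these medians were -0.23 and -0.18, and those of clone 4 were -0.0080 for the sterol and -0.0012 for the fatty acid arm. Without clone 10 replicate 3 the fatty acid median in clone 10 was -0.0039, and without clone 4 replicate 2 the sterol median in clone 4 was -0.023.

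**Figure D2:**
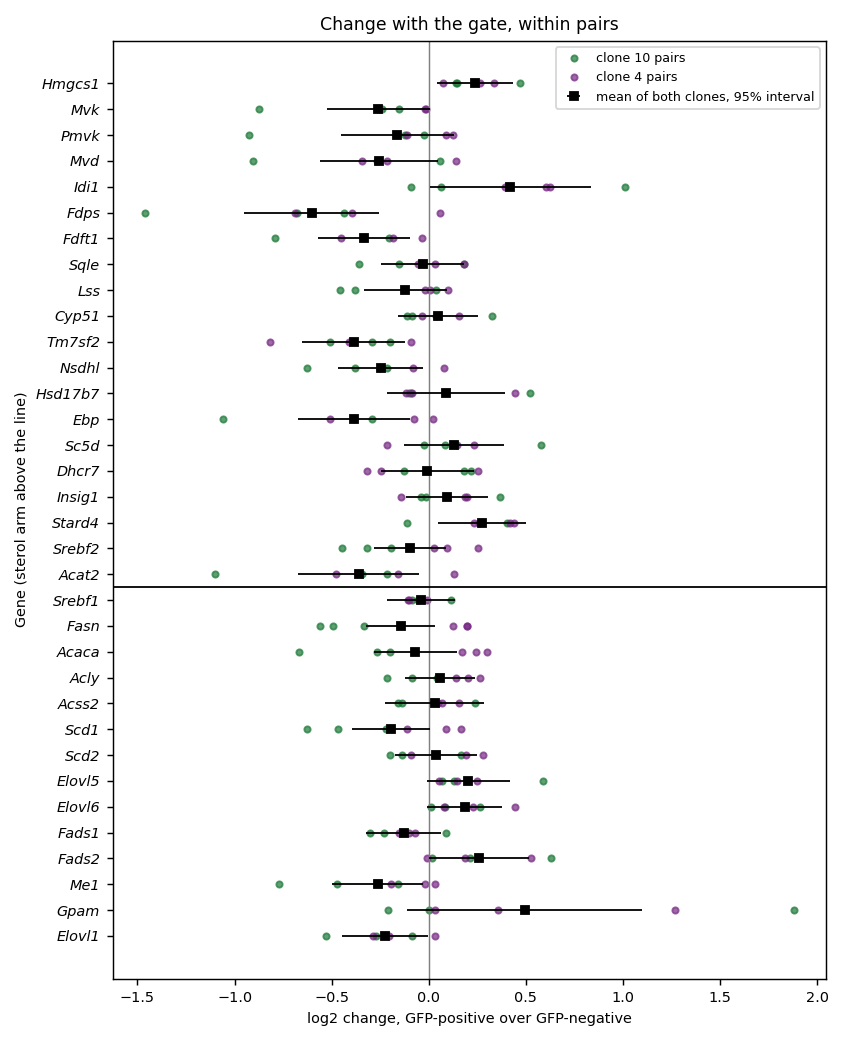
Log2 change of each member in GFP-positive over GFP-negative cells within pairs, with clone 10 pairs in green, clone 4 pairs in purple, and the mean of both clones with its 95% interval in black. Fdps lies lowest at -0.60, Gpam has the widest interval, and the lowest green points of Fdps, Ebp and Acat2 belong to clone 10 replicate 1.

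Among the regulators of the sterol arm, Srebf2, the gene of SREBP-2, was at 299, 301 and 307 CPM in GFP-positive cells of clone 10, against 373, 344 and 418 CPM in its GFP-negative cells. In clone 4, Srebf2 was at 347, 521 and 322 CPM in GFP-positive cells, against 292, 488 and 316 CPM in GFP-negative cells. In clone 10 each GFP-positive library was below every GFP-negative library, while in clone 4 the gates overlapped and replicate 2 was highest in both. The share of all genes tested whose gates did not overlap was not counted, so such separation, here and for members below, is only described. The log2 change within pairs was -0.32 (SE 0.12, adjusted p = 0.139) in clone 10 and 0.12 (SE 0.12, adjusted p = 0.76) in clone 4. With the length offset these were -0.43 (SE 0.11, adjusted p = 0.0412), under the threshold, and 0.025 (SE 0.11, adjusted p = 0.969). Insig1, which holds the SREBP and Scap complex in the endoplasmic reticulum, measured 143, 103 and 102 CPM in GFP-positive cells of clone 10, against 111, 106 and 103 CPM in its GFP-negative cells. In clone 4, Insig1 measured 146, 169 and 110 CPM in GFP-positive cells, against 162, 148 and 96 CPM in GFP-negative cells. Gates overlapped in both clones, and the clone 4 values were lowest in replicate 3 at either gate. Stard4, which carries cholesterol between membranes, ranged over 22.4 to 29.5 CPM in clone 10 GFP-positive, 18.8 to 28.9 CPM in clone 10 GFP-negative, 35.4 to 44 CPM in clone 4 GFP-positive and 28.7 to 32.9 CPM in clone 4 GFP-negative cells. Its GFP-positive libraries were above all GFP-negative ones in clone 4, with a log2 change of 0.37 (SE 0.14, adjusted p = 0.623), and overlapped them in clone 10.

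The first steps of the sterol arm lead from acetyl-CoA to isoprenoids. Acat2, the cytosolic thiolase that joins acetyl-CoA units, stood at 55.9, 51.3 and 45.5 CPM in GFP-positive cells of clone 10, against 120, 59.5 and 57.7 CPM in its GFP-negative cells. In clone 4, Acat2 stood at 55.3, 36.3 and 53.4 CPM in GFP-positive cells, against 76.9, 33.2 and 59.6 CPM in GFP-negative cells. Clone 10 GFP-negative replicate 1 was highest, and in clone 10 the gates did not overlap (log2 change -0.55 (SE 0.19, adjusted p = 0.135)). Hmgcs1, which makes HMG-CoA, had 411, 383 and 298 CPM in GFP-positive cells of clone 10, against 296, 348 and 270 CPM in its GFP-negative cells. In clone 4, Hmgcs1 had 252, 180 and 238 CPM in GFP-positive cells, against 240, 150 and 189 CPM in GFP-negative cells. In all 6 pairs it was higher in the GFP-positive member, and the mean log2 change within pairs was 0.24 (SE 0.086, adjusted p = 0.144). The same direction in all 6 pairs was seen for 6 of 34 members (17.6%), 3 higher and 3 lower, against 16% of all genes tested. Mvk, the mevalonate kinase, was at 30, 19.9 and 25.6 CPM in GFP-positive cells of clone 10, against 55, 22.1 and 30.3 CPM in its GFP-negative cells. In clone 4, Mvk was at 27.9, 19.4 and 25.5 CPM in GFP-positive cells, against 33.4, 19.6 and 25.8 CPM in GFP-negative cells. Clone 10 GFP-negative replicate 1 again stood above the others, and the GFP-positive library was lower in all 6 pairs, by little in clone 4. Pmvk, which adds the next phosphate, measured 57.8, 37.6 and 50 CPM in GFP-positive cells of clone 10, against 110, 38.3 and 54.4 CPM in its GFP-negative cells. In clone 4, Pmvk measured 42.9, 39.3 and 32.8 CPM in GFP-positive cells, against 40.4, 36.1 and 35.4 CPM in GFP-negative cells. Except for clone 10 GFP-negative replicate 1, its libraries lay between 32.8 and 57.8 CPM. Mvd, which makes isopentenyl diphosphate, stood at 64.2, 41.7 and 56.4 CPM in GFP-positive cells of clone 10, against 120, 50.3 and 54.2 CPM in its GFP-negative cells. In clone 4, Mvd stood at 64.1, 60.4 and 46.5 CPM in GFP-positive cells, against 81.2, 54.7 and 54 CPM in GFP-negative cells. Gates overlapped in both clones, and replicate 1 was the highest of each GFP-negative group. Idi1, the isomerase of isopentenyl diphosphate, had 4.2, 6.6 and 2.95 CPM in GFP-positive cells of clone 10, against 2.04, 6.32 and 3.15 CPM in its GFP-negative cells. In clone 4, Idi1 had 3.6, 3.06 and 4.92 CPM in GFP-positive cells, against 2.72, 1.98 and 3.17 CPM in GFP-negative cells. This was the least abundant member, and replicate 2 of clone 10 was high at both gates.

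Fdps had the lowest adjusted p of the sterol arm for the mean of both clones. It makes farnesyl diphosphate, the branch point to squalene and to protein prenylation, and lies at chr3:89093592-89101967 (mm10, as in the authors' deposited table). Fdps was at 50.7, 32.6 and 34.9 CPM in GFP-positive cells of clone 10, against 140, 44.2 and 55.9 CPM in its GFP-negative cells. In clone 4, Fdps was at 46.7, 40.8 and 31.6 CPM in GFP-positive cells, against 75.4, 39.1 and 41.6 CPM in GFP-negative cells. The GFP-positive library was lower in 5 of 6 pairs, with log2 differences of -1.46, -0.44 and -0.68 in clone 10 and -0.69, 0.059 and -0.40 in clone 4. The mean change within pairs was -0.60 (SE 0.15, adjusted p = 0.0723), that in clone 10 -0.86 (SE 0.22, adjusted p = 0.0635) and that in clone 4 -0.34 (SE 0.21, adjusted p = 0.703). Fdps is short, with 1453 exon bases, and its highest values came from replicate 1 of both GFP-negative groups, the libraries in which short genes were high. With the length offset its mean change was -0.45 (SE 0.096, adjusted p = 0.028) and that in clone 4 was -0.19 (SE 0.14, adjusted p = 0.796). Without clone 10 replicate 1 the mean was -0.45 (adjusted p = 0.0407), and both means were under the threshold. These settings called 6.76% and 6.36% of all genes in the mean, against 3.36% in the main fit. DESeq2 and the fit with no count filter also called Fdps in the mean. RLE scaling, limma-voom, a stricter count filter and leaving out any other pair did not.

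The next enzymes take farnesyl diphosphate to lanosterol. Fdft1, squalene synthase, measured 123, 80.5 and 81 CPM in GFP-positive cells of clone 10, against 213, 92.8 and 102 CPM in its GFP-negative cells. In clone 4, Fdft1 measured 102, 127 and 76 CPM in GFP-positive cells, against 140, 130 and 86.4 CPM in GFP-negative cells. The GFP-positive library was lower in all 6 pairs, by log2 differences of -0.79, -0.20 and -0.34 in clone 10 and -0.45, -0.036 and -0.18 in clone 4. The mean change was -0.34 (SE 0.10, adjusted p = 0.113). Sqle, squalene epoxidase, ranged over 71.9 to 104 CPM in clone 10 GFP-positive, 79.9 to 121 CPM in clone 10 GFP-negative, 77.9 to 98.6 CPM in clone 4 GFP-positive and 68.8 to 103 CPM in clone 4 GFP-negative cells. Lss, lanosterol synthase, ranged over 50.1 to 67.2 CPM in clone 10 GFP-positive, 65.4 to 78.8 CPM in clone 10 GFP-negative, 62.8 to 91.3 CPM in clone 4 GFP-positive and 63.7 to 85.4 CPM in clone 4 GFP-negative cells. For each of these the gates overlapped in both clones.

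The later enzymes turn lanosterol into cholesterol. Cyp51, the lanosterol demethylase, stood at 142, 82.8 and 81.4 CPM in GFP-positive cells of clone 10, against 113, 89.7 and 86.5 CPM in its GFP-negative cells. In clone 4, Cyp51 stood at 130, 125 and 87.6 CPM in GFP-positive cells, against 133, 113 and 85.3 CPM in GFP-negative cells. Replicate 1 was high at both gates of clone 10, and the mean change was small at 0.047 (SE 0.09, adjusted p = 0.749). Tm7sf2, a sterol reductase, had 21.9, 13.1 and 20 CPM in GFP-positive cells of clone 10, against 31.1, 16 and 23 CPM in its GFP-negative cells. In clone 4, Tm7sf2 had 20.4, 24.6 and 13.7 CPM in GFP-positive cells, against 36, 26.2 and 18.2 CPM in GFP-negative cells. The GFP-positive library was lower in all 6 pairs, and the mean log2 change was -0.39 (SE 0.12, adjusted p = 0.109). Ebp, the sterol isomerase, was at 68.1, 83.7 and 62.6 CPM in GFP-positive cells of clone 10, against 142, 103 and 81.8 CPM in its GFP-negative cells. In clone 4, Ebp was at 42.8, 48 and 44.3 CPM in GFP-positive cells, against 60.9, 47.3 and 46.8 CPM in GFP-negative cells. Every clone 10 library was above every clone 4 library. Dhcr7, the last reductase of the pathway, measured 92, 50.3 and 72.4 CPM in GFP-positive cells of clone 10, against 79, 54.9 and 63.8 CPM in its GFP-negative cells. In clone 4, Dhcr7 measured 80.1, 74.2 and 46.1 CPM in GFP-positive cells, against 100, 62.1 and 54.7 CPM in GFP-negative cells. Its gates overlapped in both clones. Nsdhl, a sterol dehydrogenase, ranged over 27.2 to 29.7 CPM in clone 10 GFP-positive, 34.5 to 46 CPM in clone 10 GFP-negative, 30.8 to 40.4 CPM in clone 4 GFP-positive and 29.1 to 48.1 CPM in clone 4 GFP-negative cells. The gates of clone 10 did not overlap for Nsdhl, at a log2 change of -0.41 (SE 0.14, adjusted p = 0.123). Hsd17b7, a keto-sterol reductase, ranged over 15.7 to 17.9 CPM in clone 10 GFP-positive, 11.3 to 19 CPM in clone 10 GFP-negative, 10.6 to 16.5 CPM in clone 4 GFP-positive and 11.5 to 12.4 CPM in clone 4 GFP-negative cells. Sc5d, a sterol desaturase, ranged over 24.1 to 31 CPM in clone 10 GFP-positive, 20.5 to 29.2 CPM in clone 10 GFP-negative, 31.5 to 40.6 CPM in clone 4 GFP-positive and 33.9 to 36.6 CPM in clone 4 GFP-negative cells. These overlapped between gates in both clones.

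In the fatty acid arm, the level of Srebf1 was close in both gates. Srebf1, the gene of SREBP-1, stood at 98.6, 86.2 and 80.3 CPM in GFP-positive cells of clone 10, against 90.9, 91.4 and 83.5 CPM in its GFP-negative cells. In clone 4, Srebf1 stood at 155, 148 and 141 CPM in GFP-positive cells, against 167, 149 and 152 CPM in GFP-negative cells. The mean change within pairs was -0.041 (SE 0.077) with a 95% interval of -0.21 to 0.13, while the clones did not overlap at either gate.

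The suppliers of acetyl-CoA and NADPH come next. Acly, which splits citrate into acetyl-CoA, had 384, 568 and 367 CPM in GFP-positive cells of clone 10, against 373, 603 and 427 CPM in its GFP-negative cells. In clone 4, Acly had 450, 371 and 582 CPM in GFP-positive cells, against 391, 337 and 485 CPM in GFP-negative cells. Acly was highest in replicate 2 of clone 10 and replicate 3 of clone 4, at both gates. Acss2, which makes acetyl-CoA from acetate, was at 11.2, 7.01 and 13.8 CPM in GFP-positive cells of clone 10, against 9.48, 7.74 and 15.4 CPM in its GFP-negative cells. In clone 4, Acss2 was at 10.4, 13.7 and 9.27 CPM in GFP-positive cells, against 9.32, 13.2 and 8.84 CPM in GFP-negative cells. In those pairs Acss2 was lowest, at both gates. Me1, the malic enzyme that supplies NADPH, measured 36.9, 32.5 and 35.6 CPM in GFP-positive cells of clone 10, against 63, 36.2 and 49.5 CPM in its GFP-negative cells. In clone 4, Me1 measured 68.7, 67.2 and 39 CPM in GFP-positive cells, against 78.4, 65.8 and 39.5 CPM in GFP-negative cells. The GFP-positive library was lower in 5 of 6 pairs and the mean change was -0.26 (SE 0.10, adjusted p = 0.158).

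For the enzymes of chain synthesis no change between gates passed the test in the main fits. With the length offset their clone 4 estimates turned from positive to negative, within their SE of 0. Fasn, fatty acid synthase, stood at 296, 554 and 273 CPM in GFP-positive cells of clone 10, against 437, 699 and 385 CPM in its GFP-negative cells. In clone 4, Fasn stood at 383, 311 and 920 CPM in GFP-positive cells, against 334, 286 and 802 CPM in GFP-negative cells. Fasn, at chr11:120805940-120824178 (mm10), was lower in GFP-positive cells in all 3 clone 10 pairs and higher in all 3 clone 4 pairs. The log2 change within pairs was -0.46 (SE 0.11, adjusted p = 0.0561) in clone 10 and 0.17 (SE 0.11, adjusted p = 0.707) in clone 4, and their difference was -0.64 (SE 0.16, adjusted p = 0.528). In clone 10, DESeq2 (adjusted p = 0.00258), limma-voom (adjusted p = 0.0387) and the length offset called Fasn lower in GFP-positive cells. These settings called 10.4%, 5.37% and 9.98% of all genes in clone 10, against 4.22% in the main fit. Acaca, acetyl-CoA carboxylase, had 35.5, 49.1 and 40.4 CPM in GFP-positive cells of clone 10, against 56.4, 59.2 and 46.5 CPM in its GFP-negative cells. In clone 4, Acaca had 39.7, 50.9 and 71.1 CPM in GFP-positive cells, against 32.3, 45.2 and 60 CPM in GFP-negative cells. For Acaca the log2 change was -0.38 (SE 0.13, adjusted p = 0.137) in clone 10 and 0.24 (SE 0.13, adjusted p = 0.69) in clone 4, with a difference of -0.61 (SE 0.19, adjusted p = 0.548). Both genes are long, and with the length offset their changes were negative in both clones, at -0.65 (SE 0.17, adjusted p = 0.0449) in clone 10 and -0.089 (SE 0.17, adjusted p = 0.928) in clone 4 for Fasn, and at -0.55 (SE 0.20, adjusted p = 0.0978) in clone 10 and -0.010 (SE 0.19, adjusted p = 0.994) in clone 4 for Acaca. Without the offset, all 3 pairs of a clone had the opposite sign to all 3 of the other for 3 of 34 members (8.82%), Fasn, Acaca and Srebf2, against 3.42% of all genes tested, and none of the 3 differences passed the test with or without it.

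Desaturases and elongases shape the product. Scd1, a stearoyl-CoA desaturase, was at 82.2, 70.5 and 53.7 CPM in GFP-positive cells of clone 10, against 95.7, 97.4 and 83.1 CPM in its GFP-negative cells. In clone 4, Scd1 was at 141, 143 and 132 CPM in GFP-positive cells, against 153, 134 and 117 CPM in GFP-negative cells. In clone 10 each GFP-positive library was below each GFP-negative one, and the log2 change was -0.44 (SE 0.13, adjusted p = 0.0864). DESeq2 (adjusted p = 0.0318), the length offset (adjusted p = 0.0215) and the fit without clone 10 replicate 1 (adjusted p = 0.0319) called it lower. Scd2, its close paralog, measured 527, 525 and 373 CPM in GFP-positive cells of clone 10, against 469, 578 and 428 CPM in its GFP-negative cells. In clone 4, Scd2 measured 782, 511 and 711 CPM in GFP-positive cells, against 833, 447 and 586 CPM in GFP-negative cells. Scd2 overlapped between gates in both clones. Reads that match several Scd genes could be dropped by the authors' counting, and the strand setting is not given in the sources used here. Elovl6, which lengthens saturated chains, stood at 227, 287 and 221 CPM in GFP-positive cells of clone 10, against 189, 271 and 219 CPM in its GFP-negative cells. In clone 4, Elovl6 stood at 301, 233 and 365 CPM in GFP-positive cells, against 257, 221 and 269 CPM in GFP-negative cells. In all 6 pairs Elovl6 was higher in GFP-positive cells, with a mean change of 0.19 (SE 0.085, adjusted p = 0.199). With the length offset it was 0.042 (SE 0.079, adjusted p = 0.757), and that in clone 10 was -0.018 (SE 0.11, adjusted p = 0.926). Elovl5, an elongase of polyunsaturated chains, ranged over 108 to 115 CPM in clone 10 GFP-positive, 74.9 to 110 CPM in clone 10 GFP-negative, 113 to 133 CPM in clone 4 GFP-positive and 102 to 113 CPM in clone 4 GFP-negative cells. Elovl5 was also higher in all 6 pairs, with a mean change of 0.20 (SE 0.094, adjusted p = 0.201). Elovl1, an elongase of very long chains, had 21.6, 16.1 and 22 CPM in GFP-positive cells of clone 10, against 31.2, 17.1 and 26.6 CPM in its GFP-negative cells. In clone 4, Elovl1 had 40.3, 46.6 and 32.3 CPM in GFP-positive cells, against 46.4, 45.5 and 39.4 CPM in GFP-negative cells. Its GFP-positive library was lower in 5 of 6 pairs, at a mean change of -0.22 (SE 0.10, adjusted p = 0.188), and of -0.13 with the length offset. Fads1, a desaturase of polyunsaturated chains, was at 78.8, 49 and 75.6 CPM in GFP-positive cells of clone 10, against 74.2, 60.5 and 88.7 CPM in its GFP-negative cells. In clone 4, Fads1 was at 122, 148 and 93.4 CPM in GFP-positive cells, against 131, 155 and 104 CPM in GFP-negative cells. The clones did not overlap at either gate for Fads1. Fads2, its partner desaturase, measured 67.5, 48.4 and 62.1 CPM in GFP-positive cells of clone 10, against 43.6, 47.9 and 53.6 CPM in its GFP-negative cells. In clone 4, Fads2 measured 90.4, 68.8 and 60 CPM in GFP-positive cells, against 62.7, 60.5 and 60.3 CPM in GFP-negative cells. Fads2 was highest in replicate 1 of the GFP-positive group in both clones, and its mean change was 0.26 (SE 0.11, adjusted p = 0.188). Gpam, which starts glycerolipid synthesis, stood at 15.3, 17.2 and 16.6 CPM in GFP-positive cells of clone 10, against 4.09, 19.9 and 16.6 CPM in its GFP-negative cells. In clone 4, Gpam stood at 22.7, 21.3 and 25.7 CPM in GFP-positive cells, against 9.37, 20.8 and 20.1 CPM in GFP-negative cells. Replicate 1 was far below the other GFP-negative libraries in both clones, and Gpam is long, with 6347 exon bases. Its mean change was 0.50 (SE 0.27, adjusted p = 0.255).

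**Figure D3:**
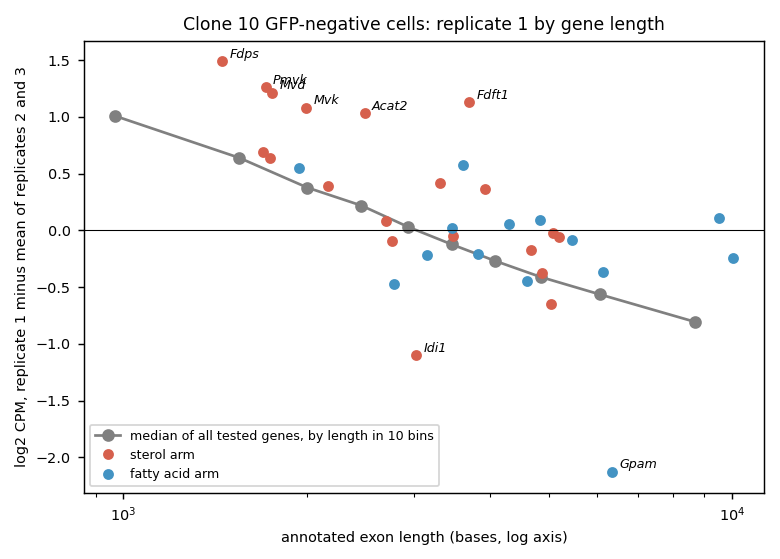
Clone 10 GFP-negative replicate 1 minus the mean of replicates 2 and 3 of its group, in log2 CPM, against annotated exon length on a log axis, for members of the sterol arm (red) and fatty acid arm (blue), with the median of all tested genes by length in 10 bins (grey). The grey line runs from 1.01 for the shortest bin to -0.81 for the longest, Fdps, Pmvk, Mvd, Mvk, Acat2 and Fdft1 lie above it, and Gpam and Idi1 lie below it.

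Short genes were mostly of the sterol arm. Of the 34 members, 7 fell in the shortest 25% of tested genes, 6 of the sterol arm (Mvk, Pmvk, Mvd, Fdps, Tm7sf2 and Ebp) and 1 of the fatty acid arm (Elovl1). All 7 were higher in clone 10 GFP-negative replicate 1 than in the mean of the other 2 libraries of that group, at a median log2 difference of 1.08. Of 9 members in the longest 25%, 4 sterol and 5 fatty acid genes, 1 was higher in that library and the median was -0.25. The part of this length difference in the gate contrast was not tested beyond the offset.

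**Figure D4:**
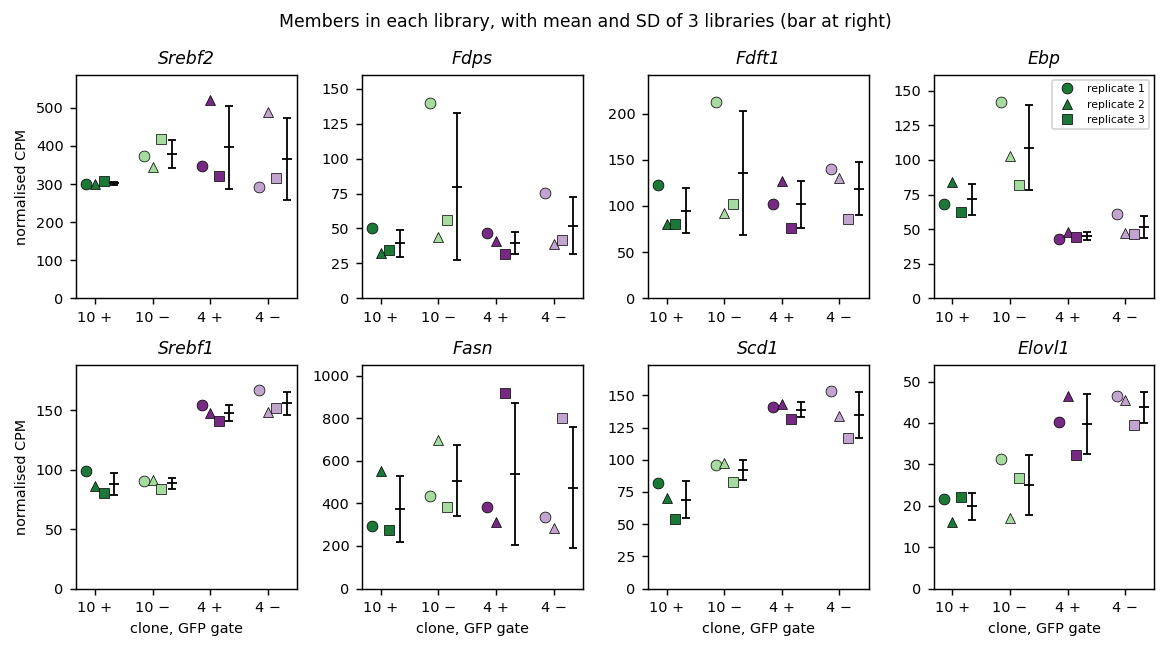
Normalised CPM of 8 members in each library, with clone and GFP gate on the horizontal axis, a marker shape per replicate and the mean and SD of 3 libraries at right of each group. Srebf1, Scd1 and Elovl1 lie lower in both clone 10 groups than in both clone 4 groups, Ebp lies higher, and Fasn is highest in replicate 2 of clone 10 and replicate 3 of clone 4.

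Clone 10 was set against clone 4 within each gate, a contrast of lines with the same labelled genotype. Of the 34 members, Scd1 passed the test, in GFP-positive cells. In GFP-positive cells all 14 fatty acid genes had a negative log2 change, with a median of -0.50. Of all genes tested 50.4% were negative there, at a median of -0.0039. The 20 sterol genes had a median of -0.043, with 12 negative, and this median was 0.18 with passage as a covariate and -0.23 to 0.038 when a library was left out. In GFP-negative cells 10 of 14 fatty acid genes were negative at a median of -0.30, and 7 of 20 sterol genes at a median of 0.17. Of all genes 46.6% were negative in that gate, at a median of 0.044. Without clone 10 GFP-negative replicate 1 the medians there were -0.16 for the fatty acid and -0.024 for the sterol arm. Without clone 4 GFP-negative replicate 1 they were -0.15 and 0.30. Outside the list, 10 of 14 fatty acid oxidation genes were negative in GFP-positive cells, at a median of -0.46. In GFP-negative cells 13 of these 14 were negative, at a median of -0.36. The 23 other fatty acid synthesis genes tested had medians of 0.056 in GFP-positive and -0.23 in GFP-negative cells. By the edgeR test across libraries 1 member, Scd1, was called, lower in clone 10 GFP-positive cells (2.94% of members, against 1.11% of all genes tested). In GFP-negative cells 0 members were called, against 0.0461% of all genes, and 8 members had an unadjusted p under 0.05 (23.5%, against 11.9% of all genes), as did 8 in GFP-positive cells (23.5%, against 14.3%).

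Scd1, at chr19:44394451-44407709 (mm10), averaged 68.8 ± 14.3 CPM in clone 10 GFP-positive and 139 ± 6 CPM in clone 4 GFP-positive cells (SD, n = 3 each), a log2 change of -1.01 (SE 0.20, adjusted p = 0.0402). In GFP-negative cells it averaged 92.1 ± 7.82 CPM in clone 10 and 135 ± 17.9 CPM in clone 4, a log2 change of -0.55 (SE 0.20, adjusted p = 0.315). All 6 clone 10 libraries were below all 6 clone 4 libraries. Leaving out any of 10 of the 12 libraries in turn ended the call in GFP-positive cells, with log2 changes of -1.16 to -0.86 and adjusted p-values of 0.051 to 0.174. It held without clone 4 GFP-negative replicate 1 (adjusted p = 0.0456) or clone 10 GFP-negative replicate 1 (adjusted p = 0.0378).

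Srebf1, at chr11:60199089-60222581 (mm10), averaged 88.4 ± 9.32 CPM in clone 10 and 148 ± 7.16 CPM in clone 4 GFP-positive cells, a log2 change of -0.75 (SE 0.17, adjusted p = 0.0551). In GFP-negative cells it averaged 88.6 ± 4.4 CPM in clone 10 and 156 ± 9.79 CPM in clone 4, a log2 change of -0.82 (SE 0.17, adjusted p = 0.108). The largest clone 10 value, 98.6 CPM, was below the smallest clone 4 value, 141 CPM, and neither gate passed the threshold in this fit. DESeq2 called Srebf1 in both gates (adjusted p = 0.00023 in GFP-positive and 0.000138 in GFP-negative cells). Elovl1 gave -1.0 (SE 0.26, adjusted p = 0.0819) in GFP-positive and -0.81 (SE 0.26, adjusted p = 0.255) in GFP-negative cells. In GFP-positive cells Elovl1 was called by DESeq2 (adjusted p = 0.0116) and with the length offset (adjusted p = 0.0298). These settings called 5.86% and 2.88% of all genes in that gate, against 1.11% in the main fit. For Fads1 the log2 change was -0.83 (SE 0.26, adjusted p = 0.149) in GFP-positive and -0.80 (SE 0.26, adjusted p = 0.268) in GFP-negative cells.

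In the sterol arm Ebp was higher in value in clone 10, with log2 changes of 0.67 (SE 0.23, adjusted p = 0.196) in GFP-positive and 1.08 (SE 0.23, adjusted p = 0.109) in GFP-negative cells, and so was Hmgcs1, with 0.70 (SE 0.23, adjusted p = 0.176) and 0.66 (SE 0.23, adjusted p = 0.303) in the same gates. DESeq2 (adjusted p = 0.00258) and the replicate block (adjusted p = 0.0485) called Ebp higher in GFP-negative cells. These settings called 2.79% and 0.896% of all genes in that gate, against 0.0461% in the main fit. Sc5d was lower in value, at -0.35 (SE 0.21, adjusted p = 0.491) in GFP-positive and -0.50 (SE 0.21, adjusted p = 0.381) in GFP-negative cells. In GFP-positive cells the clones did not overlap for 6 of 14 fatty acid genes, all lower in clone 10 (Srebf1, Scd1, Fads1, Me1, Gpam and Elovl1), and for 6 of 20 sterol genes, 2 higher (Hmgcs1 and Ebp) and 4 lower (Nsdhl, Sc5d, Stard4 and Srebf2). Among all genes tested, 12.4% were lower and 12.5% higher in clone 10 without overlap in that gate. In GFP-negative cells 5 fatty acid genes were lower without overlap (Srebf1, Scd1, Fads1, Fads2 and Elovl1), with Hmgcs1 and Ebp higher and Sc5d lower in the sterol arm, against 7.03% of all genes lower and 6.81% higher.

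**Figure D5:**
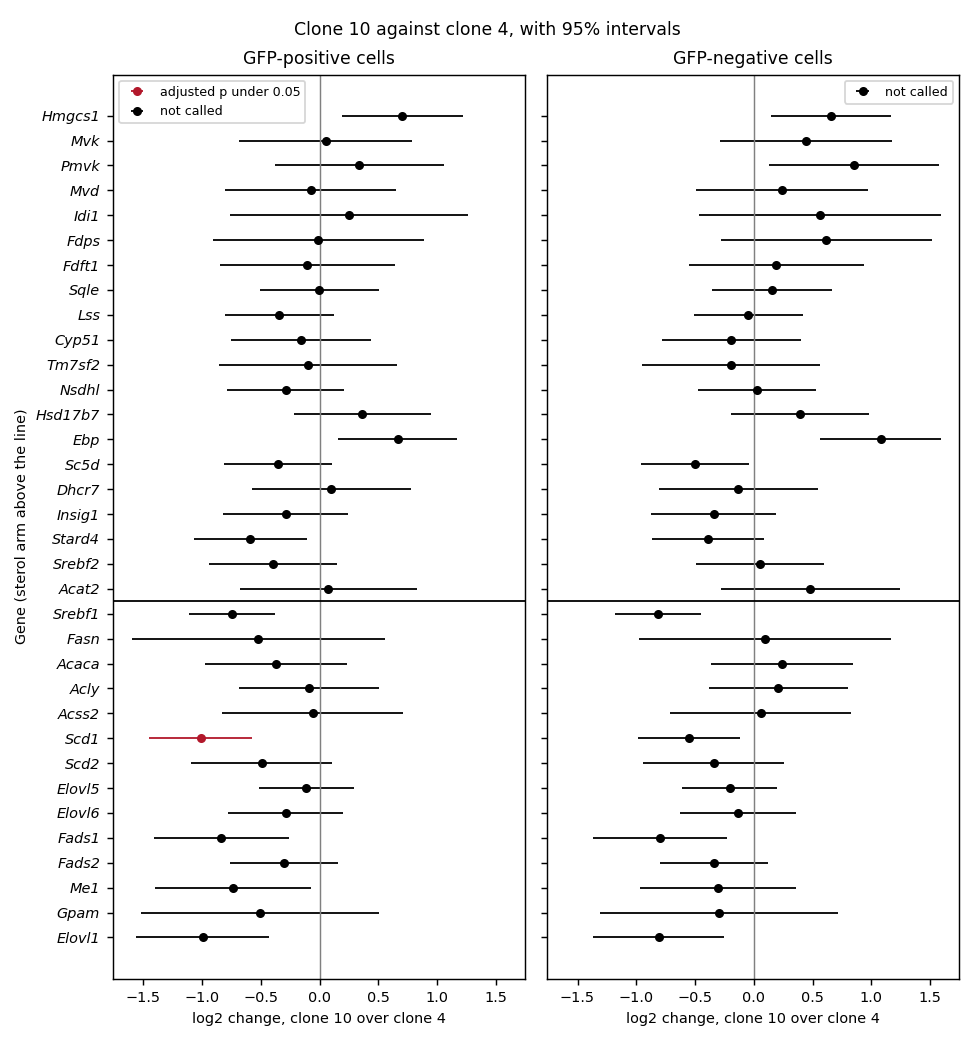
Log2 change of each member in clone 10 over clone 4, with 95% intervals, in GFP-positive cells (left) and GFP-negative cells (right), from the fit across libraries. All 14 fatty acid genes lie left of 0 in GFP-positive cells, and Scd1, in red, is the only call.

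The replicate pair was tested in the same fit as the gate within pairs. The F test of the pair term, which sets the differences between pairs of a clone against the spread within pairs, called 22 of 34 members (64.7%), 13 of 20 sterol and 9 of 14 fatty acid genes, against 53.1% of all genes tested. Fasn had the highest F of the list, 52.3 (adjusted p = 0.000494), and ranked 118 among 15179 genes. Its pair means in log2 CPM were 8.49, 9.28 and 8.34 for replicates 1 to 3 of clone 10 and 8.48, 8.22 and 9.75 for those of clone 4, a range of 0.94 in clone 10 and 1.53 in clone 4. Next came Fdft1 with an F of 12.2 (adjusted p = 0.00713) and Acly with 11.1 (adjusted p = 0.00838). Srebf1, Scd1, Ebp and Gpam were among the 12 not called in this fit. The count was 7 members without clone 4 replicate 3 (20.6%, against 25.3% of all genes), 11 without clone 10 replicate 2 (32.4%, against 39.7%) and 12 without clone 4 replicate 2 (35.3%, against 27.9%).

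The pair with the highest level differed between members, and no test was made of it. Of the 14 fatty acid genes, 6 were highest in replicate 2 of clone 10 and replicate 3 of clone 4 (Fasn, Acaca, Acly, Elovl5, Elovl6 and Gpam), as was 1 of 20 sterol genes, Idi1, which is 42.9% and 5% beside 22.5% of all genes tested. Of the 20 sterol genes, 10 were highest in replicate 1 of both clones, as were 3 fatty acid genes, which is 50% and 21.4% beside 21.8% of all genes. These pairs differed in other measures as well. The mitochondrial share was 2.32% in the GFP-positive and 2.11% in the GFP-negative library of clone 10 replicate 2, and 2.21% and 1.43% in those of clone 4 replicate 3. Replicate 1 held the libraries low in long genes, and the part of these measures was not tested. With the length offset the pair term called 25 of 34 members (73.5%, against 57.7% of all genes), 20 of them called in both fits. Srebf1 (adjusted p = 0.0484), Scd1 (adjusted p = 0.0136), Sqle, Lss and Stard4 were called only with the offset. Mvd and Acaca were called only without it. The part of passage, which differed between pairs, was not tested for this term.

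Genes beside the list in the same pathways were read for the gate within pairs, where 3.36% of all genes tested were called in the mean of both clones and 4.22% in clone 10. Of 13 other sterol genes tested, 0 were called in the mean. The mean log2 change of Npc2, which moves cholesterol out of lysosomes, was -0.40 (SE 0.11, adjusted p = 0.0859), and those of Dhdds and Ggps1, which use isoprenoids, were -0.22 (SE 0.095, adjusted p = 0.186) and 0.18 (SE 0.11, adjusted p = 0.305). Of 14 genes of SREBP processing and sterol sensing, 0 were called in the mean and 1 (7.14%), Abcg1, in clone 10. Abcg1, a cholesterol exporter, had 17.6, 7.52 and 20.8 CPM in GFP-positive cells of clone 10, against 7.99, 4.74 and 8.43 CPM in its GFP-negative cells. In clone 4, Abcg1 had 25.2, 22.7 and 6.32 CPM in GFP-positive cells, against 23.6, 26.1 and 5.94 CPM in GFP-negative cells. It was higher in clone 10 GFP-positive cells, at 1.04 (SE 0.17, adjusted p = 0.0151), against -0.0082 (SE 0.17, adjusted p = 0.992) in clone 4. The mean change was -0.32 (SE 0.089, adjusted p = 0.0873) for Nr1h2, an oxysterol receptor, 1.11 (SE 0.34, adjusted p = 0.109) for Abca1, another exporter, and 0.36 (SE 0.12, adjusted p = 0.127) for Fbxw7, which marks nuclear SREBP for breakdown.

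Of 23 other fatty acid synthesis genes tested, 3 (13%, against 3.36% of all genes) were called in the mean of both clones, all higher in GFP-positive cells. Scd3, another stearoyl-CoA desaturase, was at 178, 38.2 and 95.5 CPM in GFP-positive cells of clone 10, against 24.1, 8.72 and 10.3 CPM in its GFP-negative cells. In clone 4, Scd3 was at 60.7, 7.98 and 4.74 CPM in GFP-positive cells, against 13.2, 6.81 and 2.54 CPM in GFP-negative cells. Its mean change was 1.96 (SE 0.25, adjusted p = 0.00528), with 2.74 (SE 0.35, adjusted p = 0.00437) in clone 10 and 1.17 (SE 0.36, adjusted p = 0.492) in clone 4, and it was highest in clone 10 GFP-positive replicate 1, the library with the highest two-cell-like marker sum. Lpin1, a phosphatidate phosphatase, was higher at 0.59 (SE 0.11, adjusted p = 0.0234), with 0.78 (SE 0.15, adjusted p = 0.0259) in clone 10 and 0.41 (SE 0.15, adjusted p = 0.6) in clone 4. Mlxipl, the gene of the carbohydrate response factor ChREBP, was higher in the mean at 0.70 (SE 0.13, adjusted p = 0.0236), with 1.25 (SE 0.18, adjusted p = 0.00832) in clone 10 and 0.15 (SE 0.18, adjusted p = 0.794) in clone 4. Tecr, the last enzyme of the elongation cycle, was at -0.47 (SE 0.11, adjusted p = 0.0657). Of 14 fatty acid oxidation genes tested, 0 were called, with Acadm at -0.28 (SE 0.084, adjusted p = 0.108), Hadha at 0.23 (SE 0.080, adjusted p = 0.138), Hadh at -0.26 (SE 0.10, adjusted p = 0.161) and Cpt1c at 0.26 (SE 0.11, adjusted p = 0.174). Between clones, Mid1ip1, an activator of acetyl-CoA carboxylase, was called higher in clone 10 in GFP-positive (1.21, SE 0.20, adjusted p = 0.0298) and GFP-negative cells (1.64, SE 0.21, adjusted p = 0.0293).

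The authors' deposited tables compare GFP-positive with GFP-negative cells in each clone. In the authors' deposited table of clone 10, 0 members had an adjusted p under 0.05, the smallest being 0.412, while 418 of 22753 genes in it did. In the authors' deposited table of clone 4, 0 of 33 members with an adjusted p passed, and 8 genes did.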

How the data were processed

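RNA from 12 libraries was sequenced after TruSeq RNA v2 library preparation from total RNA, per the labels' protocols. The deposited table gives whole-number counts per gene, which the authors left unnormalized. The submitters' processing notes name STAR 2.3.0e, HTSeq 0.6.0, DESeq2, DESeq and mm10. The annotation release and strand setting, not given in the sources used here, remain unknown. Per the file headers, the authors' deposited tables per clone add a signal per library (counts over a size factor), a log2 fold change and its error, a score (their ratio) and p-values, raw and adjusted. Libraries held 12968916 to 34258395 counts.

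The deposited counts entered edgeR 4.0.16 (R 4.3.3, limma 3.58.1) with TMM scaling and the robust quasi-likelihood F test. Genes were kept with the equivalent of 10 counts in the median library in 3 or more libraries, and 15 counts in total. The fit across libraries had a term per group (8 residual degrees of freedom). The fit within pairs held clone and replicate number as a block (4 residual degrees of freedom), since libraries of a clone with the same number deviated together from their group means (correlations of 0.548 to 0.822, against -0.541 to -0.228 for other numbers). Deviations from a group mean cancel out within the group, so the negative range is tied to the positive one and is not independent of it. Benjamini-Hochberg adjustment ran over the 15179 genes tested, with calls at an adjusted p below 0.05, and edgeR is the tool behind an adjusted p where none is named. Log2 CPM used a prior count of 2, and RPKM used GENCODE M21 exon lengths. Both fits were also run on simulated counts drawn with the spread within pairs (biological coefficient of variation 0.175). The spread across libraries was larger (0.389), so the simulation does not show how the fit across libraries performs on these data.

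The members and lists were chosen with earlier results of these data known. Values in every library are given for members called in any comparison, both Srebf genes and the 3 members of each arm with the smallest p for the mean of both clones within pairs, with up to 4 genes of each neighbouring list by the same p. Ebp, Gpam and Mid1ip1, and library values of Abcg1 and Scd3, were added after their values were seen. Some genes of the neighbouring lists are not reported here. Alternatives were RLE scaling, DESeq2 1.42.0, limma-voom, other filters, a passage covariate, a replicate block, fewer libraries and a length offset.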

Additional observations from a re-analysis of the deposited data

Results flagged for a closer look

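The change of Fasn, Acaca and Srebf2 between gates had opposite signs in the clones without an offset for exon length, lower in GFP-positive cells in all 3 clone 10 pairs and higher in all 3 clone 4 pairs. The difference of the log2 changes, clone 10 minus clone 4 within pairs, was -0.635 for Fasn (SE 0.158, unadjusted p = 0.00313, edgeR adjusted p = 0.528), -0.614 for Acaca (SE 0.189, unadjusted p = 0.0102, adjusted p = 0.548) and -0.445 for Srebf2 (SE 0.162, unadjusted p = 0.0231, adjusted p = 0.607). None passed the adjustment over all genes, and DESeq2 gave an adjusted p of 0.0404 for Fasn. Such opposite directions in all pairs were found for 3.42% of all genes tested. With the length offset Fasn and Acaca were negative in both clones, at -0.646 in clone 10 and -0.0888 in clone 4 for Fasn and at -0.549 and -0.01 for Acaca. The clone 4 values had SEs of 0.169 for Fasn and 0.192 for Acaca, so their sign is not settled. Directions in single pairs were not read with the offset. Srebf2 was at -0.433 in clone 10 and 0.0251 in clone 4.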

How the results depend on the processing

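For the gate across libraries, 0 members were called in clone 10, clone 4, their mean or the difference between clones under each alternative run. Within pairs, members called in clone 10 were 5 by DESeq2 (against 10.4% of all genes), 2 by limma-voom (5.37%), 1 with no filter (4.16%) and 5 with the length offset (9.98%), and 0 to 1 when a pair was left out. In the mean of both clones they were 1 by DESeq2 (9.5%), 1 with no filter (3.54%), 1 with the length offset (6.76%), and 0 to 1 without a pair, each time Fdps. The difference between clones gave 1 by DESeq2, Fasn (0.408%). In clone 10, Fdps and Fasn were called by DESeq2, limma-voom and the length offset, Fdps with no filter, Scd1 and Ebp by DESeq2 and the length offset, Me1 by DESeq2 (adjusted p = 0.0493), Srebf2 with the length offset (adjusted p = 0.0412), and Scd1 (-0.55, adjusted p = 0.0319) without clone 10 replicate 1, all lower in GFP-positive cells. Between clones, GFP-positive calls were 3 by DESeq2 (5.86%), 2 by limma-voom (2.79%), 2 with the replicate block (3.92%), 3 with the length offset (2.88%), 0 with only the libraries compared, and 0 to 2 when a library was left out. In GFP-negative cells they were 2 by DESeq2 (2.79%) and 2 with the replicate block (0.896%). The replicate block across clones rests on shared numbers only, and within clones the block is the fit within pairs, which changed no gate call. The pair term called 7 to 25 members when a pair was left out, with 7 without clone 4 replicate 3 (against 25.3% of all genes), 11 without clone 10 replicate 2 (39.7%), 12 without clone 4 replicate 2 (27.9%) and 25 without clone 10 replicate 1 (69.2%). The cause was not tested. No called value changed direction. Of uncalled members, 9 of 34 changed sign in clone 4 across libraries without clone 4 GFP-negative replicate 1, up to 8 in a comparison without clone 10 replicate 1, up to 7 with the length offset and up to 6 with passage as a covariate. Depth limits Idi1 most, with 22 to 208 counts per library.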
